A study of Mus musculus with 2 samples.

Results

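The Hes and Hey factors Hes1, Hes5, Hes6, Hey1, Hey2 and Heyl, together with the Notch target Nrarp, were followed across the cell types of the adult mouse vomeronasal organ. These 7 genes, of the 32285 in the table, were chosen by name and not by a threshold on a measured value. The vomeronasal organ (VNO) is a chemosensory organ at the base of the nasal cavity whose neurons, the vomeronasal sensory neurons (VSNs), are born throughout life. The study profiled whole VNOs of C57BL/6J wild-type male mice at postnatal day 60 by droplet-based single cell RNA sequencing, to follow how progenitors form the apical and basal VSN types. The cells were dissociated enzymatically, frozen and thawed before capture, and they gave 2 libraries of the same group. There was no treatment, no genotype to compare and no second age, so the comparisons are between cell types within the same 2 libraries.

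When a Notch receptor meets a ligand on a neighbouring cell, its intracellular part is released, joins the DNA-binding protein Rbpj in the nucleus and switches on a small set of target genes. Hes1, Hes5, Hey1, Hey2 and Heyl are the textbook targets, and their proteins are repressors that silence proneural genes such as Neurog1 with the help of Tle corepressors. Hes6 has the same type of DNA-binding domain but counters Hes1 and promotes neuronal differentiation, and it is itself raised by proneural factors. Nrarp is a direct target that feeds back on the Notch complex, and its level is often read as a sign of active signalling. In the olfactory epithelium Hes1 is known from supporting and basal cells and Hes5 from neuronal progenitors.

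In the mm10 build Hes1 (ENSMUSG00000022528) lies on the plus strand of chromosome 16 from 30064384 to 30067796, and Hes5 (ENSMUSG00000048001) on the plus strand of chromosome 4 from 154960923 to 154962371. Hes6 (ENSMUSG00000067071) is on the minus strand of chromosome 1 from 91411483 to 91414038, and Hey1 (ENSMUSG00000040289) on the minus strand of chromosome 3 from 8663359 to 8667256. Hey2 (ENSMUSG00000019789) is on the minus strand of chromosome 10 from 30832359 to 30842801, Heyl (ENSMUSG00000032744) on the plus strand of chromosome 4 from 123233556 to 123249875, and Nrarp (ENSMUSG00000078202) on the plus strand of chromosome 2 from 25180758 to 25183339. All 7 are annotated as protein coding.

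Promoter sequences were read for the members with an entry in the RefSeq table (GRCm38.p6, 250 bases before and 50 bases after each start). Hes5, Hey2, Nrarp and, with 2 starts, Hes6 had an entry. Hes1, Hey1 and Heyl had none. Both strands were searched for TGGGAA, the core of the Rbpj binding sequence, and for CACNAG and CACGCG, sequences that Hes and Hey repressors bind. The windows that follow are shown because Hes5, Hey2 and Nrarp each stood highest in a single cell type, without overlap with the next, and had a match. They run 5′ to 3′ on the strand of the gene, with the match in capitals.
Hes5, chr4:154960685-154960714: agggcgagcgcgTTCCCAcagcccggacat
Hes5, chr4:154960829-154960858: ggccgccgagtgTGGGAAcggccgcggcgc
Hey2, chr10:30842973-30843002: tgcgcggtggcaTTCCCAcgcctctgccaa
Nrarp, chr2:25180567-25180596: ggccagaccagaCTAGTGctggtcagacca
Nrarp, chr2:25180667-25180696: atcgaaagagccCTGGTGtgcgcgtcaaga
In Hes5 the capitals mark TGGGAA on both strands, 226 to 221 and 82 to 77 bases before the start. In Hey2 they mark it on the opposite strand, 207 to 202 bases before the start, and a further match spans the start. In Nrarp they mark CACNAG on the opposite strand at 2 places. No TGGGAA was found in the Hes6 or Nrarp promoters, and no CACGCG in any of the 4. Of 32851 promoters of the same length, 25.6% held TGGGAA, 42.5% held CACNAG and 9.27% held CACGCG. A match of 6 letters is a description of the sequence and says nothing of binding in these cells.

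After cells with over 5% mitochondrial UMIs were left out, library 1 held 5694 cells with 48177601 UMIs and library 2 held 4898 cells with 40959392 UMIs (UMI, unique molecular identifier: 1 per captured molecule). The median depth per cell was 6668 and 6650 UMIs, and 3 barcode sequences occurred among the kept cells of both libraries. The cells fell into 33 types named from marker genes and 13 unnamed clusters with 1796 cells, most of them shallow or with mixed markers. A name ending in "-like" means that a cluster raised the markers of that type. Levels are given as CPM, the UMIs of a gene divided by all UMIs of the cells of a type and scaled to 1000000, in each library. The method counts the 3′ end of each molecule, so CPM was not divided by gene length, and levels of different genes are set side by side on that scale. A share of cells is the share with at least 1 UMI, and its interval covers counting error only.

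Hes1 or Hes6 was the leading member in every named type. Hes1 held the highest CPM of the 7 in 22 types and Hes6 in 11. The types led by Hes6 were the T cell-like cells and the whole neuronal lineage from progenitor-like cells on, except mature basal VSN-like cells. In mature basal VSN-like cells the lead of Hes1 over Hes6 was narrow, at 44.0 and 49.4 against 41.9 and 38.2 CPM. It rests on 86 against 74 UMIs, and those of Hes1 were in few cells. Hes6 led T cell-like cells with only 26.3 and 30.4 CPM and mature apical VSN-like cells with 51.8 and 37.3 CPM. Both are near the level read as background below. In 3 types, the dendritic-like, B cell-like and T cell-like cells, the CPM values of the leading and the next member overlapped between libraries. Behind Hes1, the second member differed between types. It was Hey1 in 7 types, among them the 5 epithelial types other than gland-like cells. It was Hey2 in olfactory ensheathing-like cells, Heyl in Dcn-high fibroblast-like cells, Nrarp in monocyte-like and Aqp1-high endothelial-like cells, and Hes6 in the other 11. Hes5 was second to Hes6 in cycling precursor-like and precursor-like cells and in no other type.

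**Figure D1:**
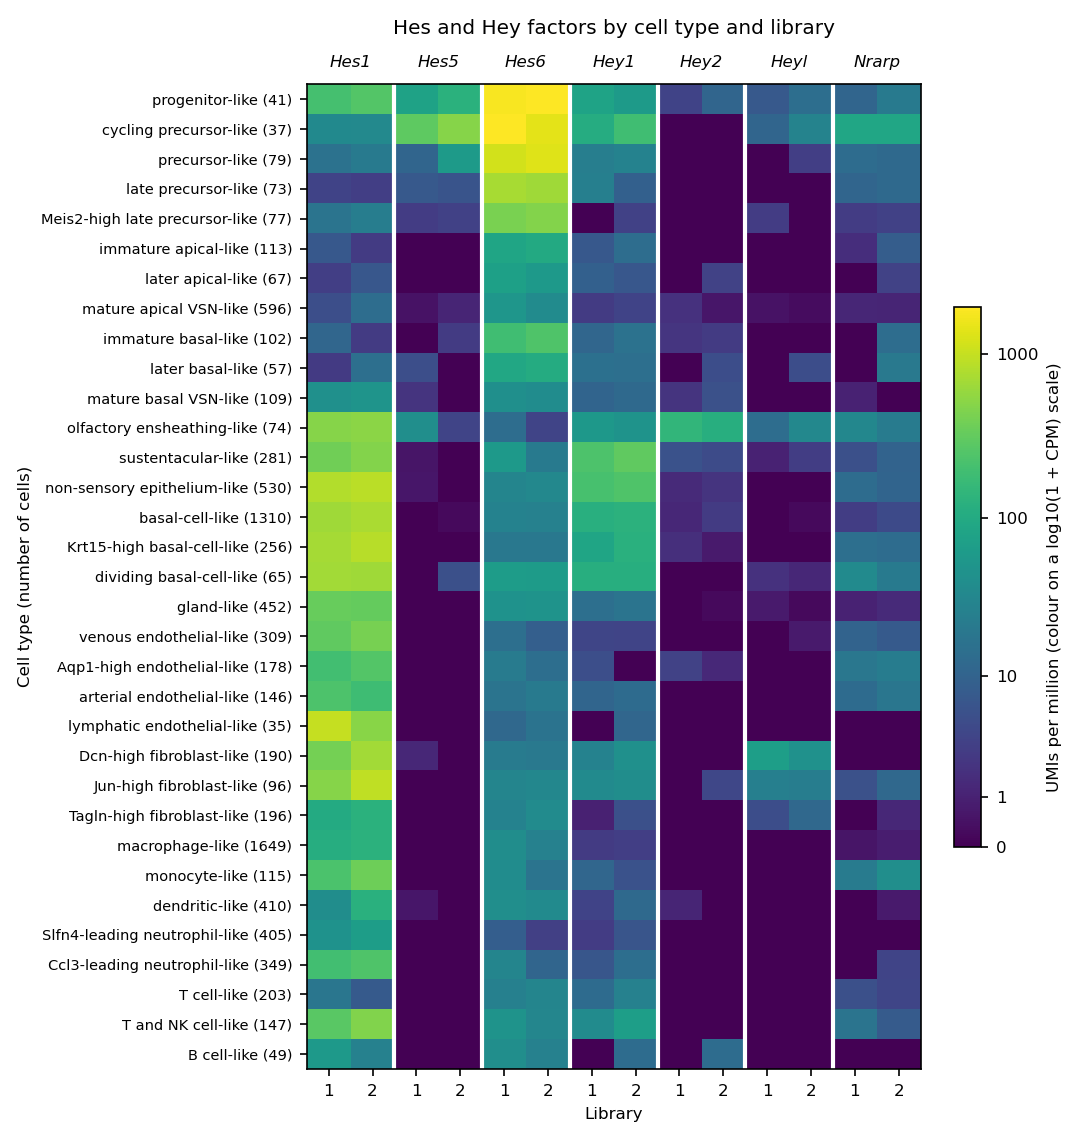
Level of each member in CPM (colour on a log10(1 + CPM) scale) in the 33 named cell types (rows, with the number of cells) and both libraries (columns 1 and 2 under each gene). Hes1 covers the epithelial, connective and endothelial rows, Hes6 the precursor and neuronal rows, Hes5 stands out in progenitor-like and cycling precursor-like cells, Hey2 in olfactory ensheathing-like cells and Heyl in Dcn-high and Jun-high fibroblast-like cells.

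Hes1, the repressor that holds cells in an undifferentiated or supporting state, was detected in all 33 types, at 10 CPM or more in both libraries in 26. Non-sensory epithelium-like cells had the highest mean, with 800.0 CPM in library 1 and 891 CPM in library 2. Krt15-high basal-cell-like cells followed with 705 and 855 CPM, and basal-cell-like cells with 655 and 746 CPM. Lymphatic endothelial-like cells had 1009 and 499 CPM, from only 35 cells, and Jun-high fibroblast-like cells 484 and 944 CPM, so that both overlapped these 3 types. Of the 32 neighbouring pairs of types in the order of Hes1, 3 did not overlap: olfactory ensheathing-like cells (494 and 513 CPM) over sustentacular-like cells (380 and 475 CPM), arterial endothelial-like cells (230 and 186 CPM) over macrophage-like cells (109 and 130 CPM), and cycling precursor-like cells (35.2 and 34.5 CPM) over Meis2-high late precursor-like cells (17.2 and 23.6 CPM). The lowest mean was in late precursor-like cells, with 3.62 and 3.03 CPM from 2 UMIs. Immature apical-like cells, with 6.93 and 2.77 CPM, overlapped them.

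The share of cells with Hes1 was read against mature apical VSN-like cells, where it was 8.22% (exact 95% binomial interval 6.14% to 10.7%, median 13507.5 UMIs per cell). It was 93.6% (91.2% to 95.5%) in non-sensory epithelium-like cells at a median of 10932 UMIs. When each cell was thinned to 2000 UMIs, these shares became 1.51% and 69.5%. Macrophage-like cells kept 16.9% after thinning, with an interval (14.8% to 19.2%) above that of the apical neurons (0.693% to 2.85%), so Hes1 in macrophage-like cells was not at that background.

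Among the immune types Hes1 differed within a cluster. The T and NK cell-like cluster held 275 and 460 CPM of Hes1, while T cell-like cells held 18.4 and 7.595 CPM. Inside the T and NK cell-like cluster, Hes1 was detected in 38 of 74 cells with no UMI of the T cell receptor complex genes Cd3d, Cd3e or Cd3g. It was detected in 11 of 73 cells that had such a UMI. The split held in each library, with 17 of 35 against 7 of 40 cells in library 1 and 21 of 39 against 4 of 33 in library 2. Hey1 followed it, in 15 of the 74 cells against 2 of the 73. Ncr1, an NK cell and innate lymphoid cell receptor, was in 34 of the 74 and 6 of the 73. Krt5, a basal cell keratin, was in 1 of the 74 and 3 of the 73, and Krt18, an epithelial keratin, in 20 and 13. The part of epithelial RNA in the level of Hes1 was not tested.

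Hey1, a repressor of the same pathway, was highest in the supporting epithelium. Sustentacular-like cells, which wrap and support the neurons, had 230 and 305 CPM. Non-sensory epithelium-like cells, which line the facing wall of the lumen, had 212 and 240 CPM, and the values of these types overlapped. Cycling precursor-like cells came next with 108 and 190 CPM, and basal-cell-like cells, at 118 and 128 CPM, overlapped them. Krt15-high basal-cell-like cells (84.8 and 119 CPM) and dividing basal-cell-like cells (114 and 112 CPM) overlapped each other. Hey1 was at 2.76 and 3.11 CPM in macrophage-like cells, where 1.15% of cells had a UMI (0.695% to 1.79%, median 4441 UMIs). In sustentacular-like cells that share was 86.8% (82.3% to 90.6%, median 11302 UMIs). After thinning to 2000 UMIs the shares were 0.512% and 41.4%.

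Hes6, which counters Hes1 and accompanies neuronal differentiation, had lower levels toward the later types of the neuronal lineage. It had 1816 and 1936 CPM in progenitor-like cells, 1904 and 1431 CPM in cycling precursor-like cells and 1151 and 1353 CPM in precursor-like cells. Late precursor-like cells had 716 and 654 CPM, and Meis2-high late precursor-like cells, named for the apical gene Meis2, 419 and 469 CPM. From cycling precursor-like cells down to immature basal-like cells (191 and 240 CPM), each type stood above the next in both libraries. The order then went on through later basal-like cells (93.1 and 105 CPM) and immature apical-like cells (84.9 and 97.0 CPM), which overlapped. Mature VSNs of both kinds held least, with 51.8 and 37.3 CPM in apical and 41.9 and 38.2 CPM in basal cells.

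**Figure D2:**
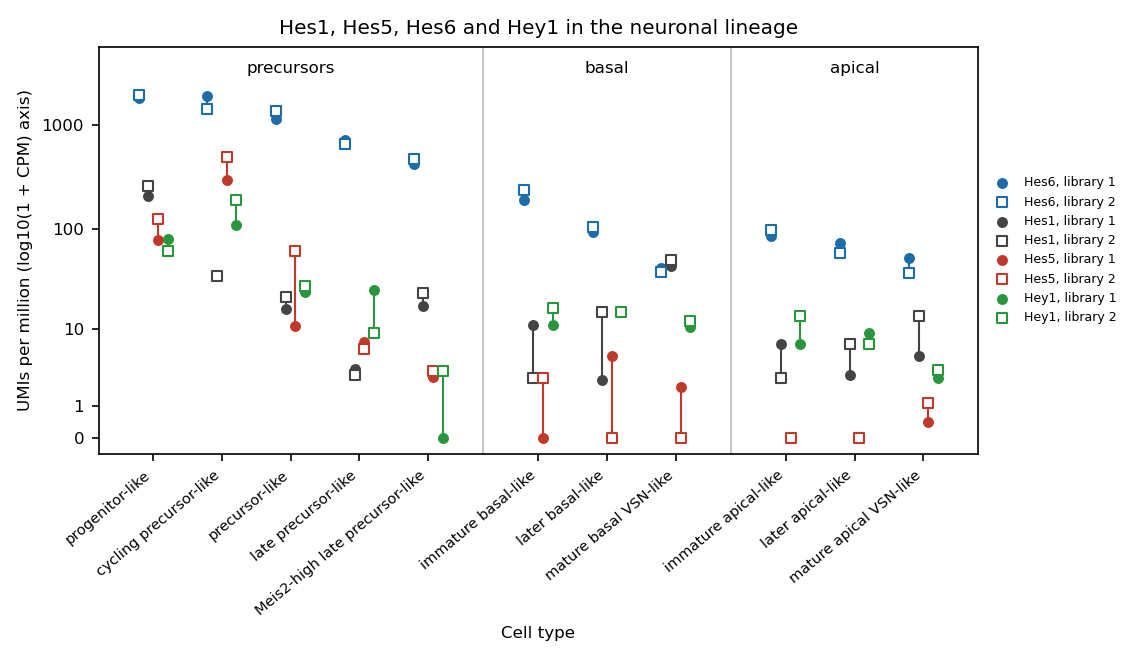
Level of Hes6, Hes1, Hes5 and Hey1 in CPM (log10(1 + CPM) axis) in the cell types of the neuronal lineage, with 1 point per library (filled circles library 1, open squares library 2) joined by a vertical line. Hes6 goes from 1816 and 1936 CPM in progenitor-like cells to 51.8 and 37.3 CPM in mature apical and 41.9 and 38.2 CPM in mature basal cells, Hes5 and Hey1 are highest in cycling precursor-like cells, and Hes1 is highest in progenitor-like cells.

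In mature neurons and in most types outside the lineage Hes6 was at a like low level. After thinning to 2000 UMIs, 6.49% of macrophage-like cells had a Hes6 UMI (5.15% to 8.06%). The thinned share was 6.11% in non-sensory epithelium-like cells, 5.76% in sustentacular-like cells, 7.21% in mature apical VSN-like cells and 6.42% in mature basal VSN-like cells. These shares are read as background. Gland-like and dividing basal-cell-like cells lay higher, at 13.97% and 13.85%, and monocyte-like cells at 9.71%. Progenitor-like cells kept 92.7% (80.1% to 98.5%), far above all of these. Without thinning the shares were 13.2% in macrophage-like cells, 44.6% in mature apical VSN-like cells and 100% of the 41 progenitor-like cells.

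Hes5, a Notch target of dividing neural cells, was nearly restricted to the dividing lineage. Of its 345 UMIs in the kept cells, 195 (56.5%) were in the 37 cycling precursor-like cells and 77 (22.3%) in the 41 progenitor-like cells. The level was 295 and 494 CPM in cycling precursor-like cells, 77.7 and 123 CPM in progenitor-like cells and 10.8 and 60.8 CPM in precursor-like cells, and these 3 types did not overlap. Olfactory ensheathing-like cells had 41.5 and 3.69 CPM, where 8 of the 10 UMIs came from 1 cell. In 17 of the 33 types no Hes5 UMI was found. In macrophage-like cells it was in 0 of 1649 cells, which limits cells with a Hes5 UMI to 0.182% but not cells that express the gene below detection.

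Nrarp, the feedback regulator of the Notch complex, was highest in the same cycling precursor-like cells, at 86.7 and 86.2 CPM, above every other type in both libraries. Monocyte-like cells followed with 22.2 and 40.5 CPM, dividing basal-cell-like cells with 36.2 and 21.7 CPM, olfactory ensheathing-like cells with 32.3 and 22.1 CPM and Aqp1-high endothelial-like cells with 18.9 and 22.8 CPM. These 4 overlapped each other, and they rest on 13 to 35 UMIs a type. Mature apical VSN-like cells had 1.28 and 1.17 CPM.

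Hey2 and Heyl were scarce, with 184 and 185 UMIs in the kept cells, and each was centred on a type outside the epithelium. Olfactory ensheathing-like cells, the glia that wrap the axons of the sensory neurons, held 62 of the Hey2 UMIs (33.7%). Their level was 143 and 114 CPM, and 44.6% of the 74 cells had a UMI (33.0% to 56.6%, median 5316.5 UMIs). The next type, progenitor-like cells, had 3.61 and 10.9 CPM from 5 UMIs. Dcn-high fibroblast-like cells held 81 of the Heyl UMIs (43.8%), at 67.8 and 45.2 CPM, above the Jun-high fibroblast-like cells at 25.03 and 24.1 CPM. Heyl was also at 13.8 and 33.2 CPM in olfactory ensheathing-like cells and at 10.8 and 28.7 CPM in cycling precursor-like cells, which rest on 12 and 9 UMIs. Neither Hey2 nor Heyl had a UMI in the 1649 macrophage-like cells.

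Hey2 and Hey1 are known for arterial endothelium, and here the endothelial types held little of either. Hey1 was at 10.9 and 13.1 CPM in arterial endothelial-like cells, and no Hey2 UMI was found in those 146 cells. Aqp1-high endothelial-like cells had 3.44 and 1.425 CPM of Hey2, from 3 UMIs. The arterial markers fixed for naming the types summed to 236 and 191 CPM over both of these clusters and to 29.1 and 42.1 CPM in venous endothelial-like cells. The further Hes genes of the family were nearly absent, with 5 UMIs of Hes2, 0 of Hes3 and 71 of Hes7 over all kept cells.

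The pattern of each member over the 33 types was matched against 13329 genes by Pearson's correlation of log2(CPM + 1), averaged over libraries. Points share a library, a depth and a cell capture, so these are descriptions. The closest genes to Hes1 were Ier2 (r = 0.87), Fos (0.85) and Endod1 (0.85), and the first and second of these are immediate early genes, which dissociation of tissue is known to raise. Hes5 and Hes6 shared their closest gene, the proneural factor Neurog1, at 0.83 and 0.89. Btbd17 and Gins1, a DNA replication factor, came next for Hes5 (both 0.81), and Miat and Rbm24 for Hes6 (both 0.88). For Hey1 they were Mt2 (0.77), Arc (0.75) and Sox2 (0.74), a factor of supporting and stem cells. For Hey2 they included Foxd3 (0.71) and Gpr37l1 (0.70), genes of glia and their precursors, and for Heyl Mdk (0.81), Hspb2 (0.81) and Igfbp5 (0.80). For Nrarp they were lower, with Lrrc8b (0.68), Tmpo (0.64) and Pcnt (0.63). Among the members themselves, Hes5 with Hes6 was the closest pair (0.74), and Hes1 with Hes6 was the lowest (-0.47).

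In all, 6 comparisons of cell groups were tested with edgeR's quasi-likelihood test on UMIs summed per library and group, 2 sums against 2, with adjustment over all genes tested. Because both libraries may come from the same pool of mice, the p-values measure only the spread between these captures. A member with fewer than 10 UMIs in the 4 sums was not tested. A list of 50 other Notch pathway genes (receptors, ligands, glycosyltransferases, cleavage enzymes, nuclear cofactors, Tle corepressors, Id and proneural genes) was counted beside the members.

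**Figure D3:**
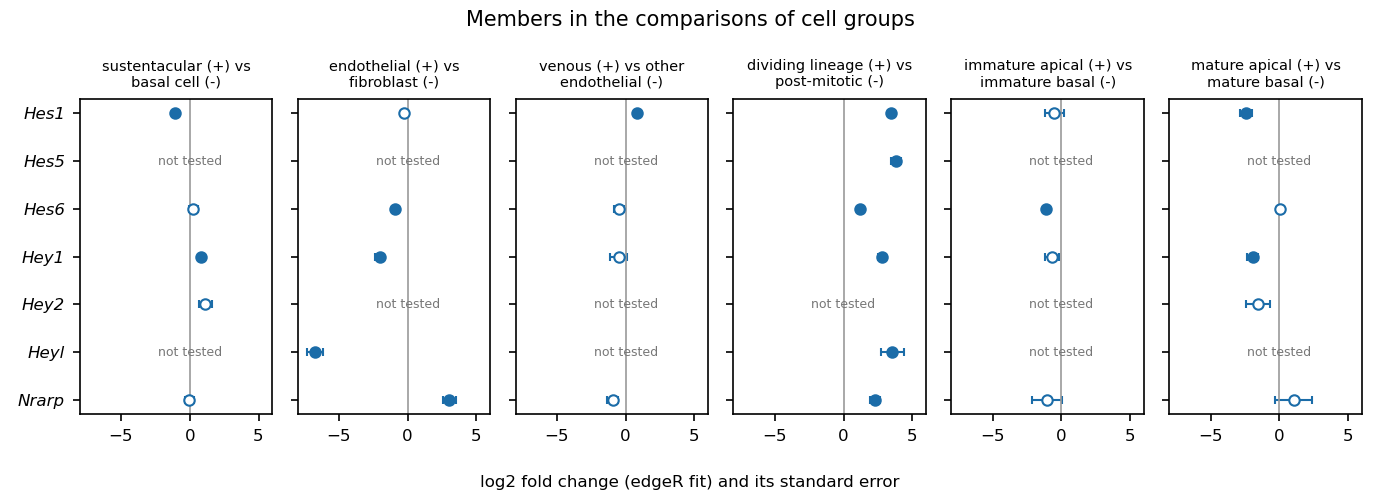
Log2 fold change of each member in the 6 comparisons (x axis, points with bars of 1 standard error from the edgeR fit), positive where the group marked + is higher. Filled points passed an adjusted p of 0.05 and open points did not, and members with fewer than 10 UMIs are marked as not tested. The 6 tested members all lie to the right for dividing lineage cells, and Hes1 and Hey1 point in opposite directions between sustentacular-like and basal-cell-like cells.

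The first comparison asked whether supporting and basal epithelial cells use the same Notch targets. Hey1 was higher in sustentacular-like cells and Hes1 was higher in basal-cell-like cells, with 281 against 1566 cells. The basal-cell-like group had 111 and 126 CPM of Hey1 against the 230 and 305 CPM of sustentacular-like cells, a log2 fold change of 0.81 ± 0.14 (SE, edgeR adjusted p = 0.00108). For Hes1 it had 666 and 768 CPM against 380 and 475 CPM, a log2 fold change of -1.11 ± 0.12 (edgeR adjusted p = 5.39e-05). In both cases the libraries of the groups did not overlap. These were 2 of 5 members tested, where 40.5% of all 14027 genes were called. Hey2 (5.82 and 4.71 against 1.43 and 2.33 CPM, edgeR adjusted p = 0.0852), Hes6 (57.1 and 21.2 against 26.1 and 25.5 CPM, adjusted p = 0.564) and Nrarp (5.29 and 10.0 against 5.605 and 6.36 CPM, adjusted p = 0.968) did not pass. A single sustentacular-like cell carried 57 of the 144 Hes6 UMIs of its type. The immediate early gene Fos moved with Hes1, at 3150 and 3095 CPM in sustentacular-like and 8799 and 7995 CPM in basal-cell-like cells. Ier2 was at 1846 and 1925 against 1818 and 1680 CPM. After the scaling of the fit, Ier2 had a log2 fold change of -0.25 ± 0.10 and did not pass (edgeR adjusted p = 0.0763). Their part in the Hes1 difference was not tested.

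Of the pathway list, 42 genes were tested in that comparison, with 6 higher in sustentacular-like and 18 higher in basal-cell-like cells. Ligands led the basal side. Dll1 had 0.00 and 2.35 against 69.2 and 87.2 CPM, a log2 fold change of -6.44 ± 0.43, and Jag2 had 1.06 and 5.88 against 82.6 and 99.6 CPM, a log2 fold change of -5.11 ± 0.34. Dlk2, a Notch antagonist of the Delta family, was at 0.529 and 1.76 against 155 and 154 CPM (log2 fold change -7.43 ± 0.28). On the sustentacular side stood the receptor Notch3 (20.6 and 32.4 against 1.82 and 0.776 CPM, log2 fold change 3.91 ± 0.38), the presenilin Psen2 of the receptor-cleaving enzyme (211 and 190 against 8.47 and 9.62 CPM, 4.11 ± 0.16) and the corepressor Tle2 (21.7 and 29.999 against 4.30 and 3.57 CPM, 2.33 ± 0.26). The median log2 fold change was -0.61 over the tested list and -0.06 over all genes. With the mitochondrial limit at 10%, 6 members were called in this comparison, and Hes6 (-0.72, edgeR adjusted p = 0.00189) turned to the basal and Nrarp (1.26, adjusted p = 0.000531) to the sustentacular side. At that limit the groups held 1389 sustentacular-like and 1840 basal-cell-like cells, in place of 281 and 1566. The sustentacular-like levels given here thus rest on a much smaller set of cells.

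The vessel wall was compared next. No cluster had the markers of mural cells alone, so the 482 fibroblast-like cells, 1 cluster of which is high in the smooth muscle gene Tagln, stood in for them against 633 venous, arterial and Aqp1-high endothelial-like cells. Nrarp was higher in endothelial-like cells, and Heyl, Hey1 and Hes6 were higher in fibroblast-like cells. Nrarp had 12.99 and 13.7 CPM in endothelial-like and 0.939 and 2.45 CPM in fibroblast-like cells, a log2 fold change of 3.03 ± 0.49 (edgeR adjusted p = 2.32e-05). Heyl had 1 UMI in all endothelial-like cells against 66 and 44 UMIs in fibroblast-like cells (30.99 and 26.9 CPM). Heyl was 138-fold higher in fibroblast-like cells, with a counting interval of 24.3 to 5498 (edgeR adjusted p = 1.69e-09). Hey1 had 5.63 and 4.14 against 16.4 and 25.7 CPM, a log2 fold change of -2.05 ± 0.35 (edgeR adjusted p = 4.46e-05). Hes6 had 17.3 and 12.4 against 26.3 and 29.97 CPM, a log2 fold change of -0.89 ± 0.26 (edgeR adjusted p = 0.00734), which did not pass with DESeq2 (-0.90, adjusted p = 0.106). The thinned shares of cells with Hes6 ran from 2.08% to 6.82% over the types of both groups, beside 6.49% in macrophage-like cells. These were 4 of 5 members tested, where 44.5% of all 12987 genes were called. Hes1 overlapped, with 263 and 331 against 274 and 464 CPM, and did not pass (log2 fold change -0.27 ± 0.18, edgeR adjusted p = 0.231). With the library as a block it did (adjusted p = 0.0464). With cells thinned to 2000 UMIs only Heyl passed.

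In the pathway list 16 of 42 tested genes were higher in endothelial-like and 9 higher in fibroblast-like cells (median log2 fold change 0.20, against -0.01 over all genes). The endothelial side held Mfng, a glycosyltransferase that modifies Notch receptors (136 and 140 against 0.939 and 1.22 CPM, log2 fold change 6.97 ± 0.31), and the ligands Dll4 (21.2 and 27.8 against 0.00 and 1.22 CPM, 5.39 ± 0.55) and Jag2 (35.9 and 50.1 against 0.939 and 1.22 CPM, 5.28 ± 0.41). The fibroblast side held Notch3, the receptor known from mural cells (0.433 and 0.00 against 8.45 and 14.1 CPM, log2 fold change -5.33 ± 0.77), the corepressor Tle6 and the regulator Dtx1. The smooth muscle list summed to 9357 and 8162 CPM in the fibroblast-like group. Heyl within it was highest in the Dcn-high cluster and lower, at 4.99 and 12.1 CPM, in the Tagln-high cluster.

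Within the endothelium, Hes1 was higher in the 309 venous endothelial-like cells than in the other 324. It had 306 and 413 CPM against 211 and 230 CPM, without overlap, a log2 fold change of 0.85 ± 0.16 (edgeR adjusted p = 0.000225). This was the call among 4 members tested, where 11.7% of all 11125 genes were called. Nrarp pointed the other way, with 10.23 and 7.52 against 16.4 and 21.2 CPM, and did not pass (log2 fold change -0.93 ± 0.40, edgeR adjusted p = 0.145). With cells thinned to 2000 UMIs it passed (-5.49, adjusted p = 0.0119). Among thinned cells Nrarp was in 0% of venous, 3.43% of Aqp1-high and 4.29% of arterial endothelial-like cells. The size of that value thus rests on a count of 0. Hes6 and Hey1 did not pass either (adjusted p of 0.553 and 0.745). The venous group is also part of the previous comparison. The fibroblast markers summed to 698 and 1062 CPM in venous and 7.71 and 3.69 CPM in other endothelial-like cells, and Fos was at 6437 and 6025 against 4871 and 5635 CPM. Their part in the Hes1 difference was not tested. Of 37 pathway genes tested, 4 were higher in venous and 4 higher in other endothelial-like cells. The receptor Notch2 (12.6 and 17.3 against 0.00 and 2.77 CPM), the enzyme subunit Psen2 (87.3 and 75.2 against 20.2 and 25.9 CPM) and the ligand Dll1 (21.2 and 37.6 against 13.5 and 17.5 CPM) led the venous side. The ligands Jag2 (10.23 and 12.03 against 67.4 and 97.0 CPM) and Dll4 (6.29 and 13.5 against 39.5 and 45.2 CPM) and the receptor Notch4 (7.08 and 14.3 against 26.97 and 42.5 CPM) led the other side.

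In the neuronal lineage, the 78 dividing cells (41 progenitor-like and 37 cycling precursor-like) were compared with 229 post-mitotic precursors, 109 and 120 in the libraries. All 6 tested members were called higher in dividing cells, where 30.2% of 11414 genes were called in either direction. Hes5 had 165 and 267 CPM in dividing cells and 7.03 and 24.1 CPM in post-mitotic cells, a log2 fold change of 3.81 ± 0.35 (edgeR adjusted p = 7.55e-06). Hes1 had 139 and 171 against 13.1 and 15.7 CPM, a log2 fold change of 3.46 ± 0.25 (adjusted p = 8.92e-07), and Hey1 91.1 and 111 against 16.1 and 13.6 CPM, a log2 fold change of 2.79 ± 0.27 (adjusted p = 9.99e-06). Nrarp had 41.2 and 46.7 against 9.04 and 9.42 CPM (2.28 ± 0.35, adjusted p = 0.000376). Heyl, with 17 against 2 UMIs, had 8.67 and 20.03 against 1.00 and 1.05 CPM (3.53 ± 0.83, adjusted p = 0.00667). Hes6 moved least, with 1852 and 1740 against 774 and 837 CPM (1.22 ± 0.12, adjusted p = 1.07e-05). Hey2 had 5 UMIs in dividing cells and 0 in the others and was not tested.

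These groups also differed in other ways. Median depth was 18141 and 15213 UMIs per cell in the dividing types and 8654 to 9122 in the post-mitotic types. Fos was at 653 and 249 against 145 and 126 CPM, and Ier2 at 685 and 389 against 112 and 92.1 CPM. The fibroblast markers summed to 336 CPM in library 1 and 4.45 CPM in library 2 of the dividing cells. Of the 37 cycling precursor-like cells, 3 had at least 10 such UMIs and held no Hes5 UMI, and without those 3 cells 6 members were called. Epithelial markers were higher in dividing cells as well, with 145 and 97.9 against 42.2 and 40.8 CPM for the 5 basal cell markers and 61.8 and 100.1 against 12.05 and 14.7 CPM for the sustentacular markers, 4 of 5 detected. Their part in the result was not tested. With cells thinned to 2000 UMIs 5 members were called, and Heyl had too few UMIs for a test. Heyl had like log2 fold changes but missed the threshold with DESeq2 (3.82, adjusted p = 0.0651) and with no filter on low counts in edgeR (3.49, adjusted p = 0.0518). In the pathway list 11 of 42 tested genes were higher in dividing and 9 higher in post-mitotic cells (median log2 fold change 0.11, against -0.01 over all genes). The cyclin Ccnd1 had 390 and 483 against 11.05 and 45.0 CPM (4.02 ± 0.33) and the ligand Jag1 8.67 and 15.6 against 1.00 and 1.05 CPM (3.34 ± 0.82). The corepressors went the other way, with Tle1 at 59.6 and 66.8 against 278 and 295 CPM (-2.13 ± 0.18) and Tle2 at 2.17 and 2.23 against 20.1 and 24.1 CPM (-3.17 ± 0.58), and so did Dtx1.

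The members split the dividing cells unevenly. Hes1 was at 208 and 258 CPM in progenitor-like cells and at 35.2 and 34.5 CPM in cycling precursor-like cells, while Hes5 was at 77.7 and 123 CPM in the former and 295 and 494 CPM in the latter. The latter are marked by Neurod1, a factor of neuronal precursors, with 1585 and 1023 CPM against 7.23 and 87.2 CPM in the former. The classes were not tested against each other.

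In single cells Hes5 was concentrated. Of the 78 dividing lineage cells, 25 had a Hes5 UMI, and 17 cells with 4 or more UMIs held 258 of the 272. These 17 cells (9 and 8 in the libraries, 6 progenitor-like and 11 cycling precursor-like) had a median of 13 and at most 42 Hes5 UMIs. All 17 held Hey1, with a median of 4 UMIs, and 13 held Nrarp. The receptor Notch1 was in 14 of them, and the ligand Dll4 in 0, at a median depth of 13917 UMIs. The 8 cells with 1 to 3 Hes5 UMIs had Hey1 in 3, Nrarp in 1 and Dll4 in 2 at a median depth of 24520.5 UMIs. The limit of 4 UMIs was not fixed in advance, and the split depends on it. At 3 Hes5 UMIs, a cell of each library held 0 Hey1 UMIs, and that of library 1 held 1 Dll4 UMI. In the 53 cells without Hes5, Hey1 was in 19, Nrarp in 9, Notch1 in 21 and Dll4 in 13, at a median depth of 16397 UMIs. Seen from the ligand, the 15 cells with Dll4 had Hes5 in 2, Hey1 in 4 and Nrarp in 2, and the 63 cells without Dll4 had them in 23, 35 and 21. Cells of a library are not replicates of a condition, so these counts carry no test.

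**Figure D4:**
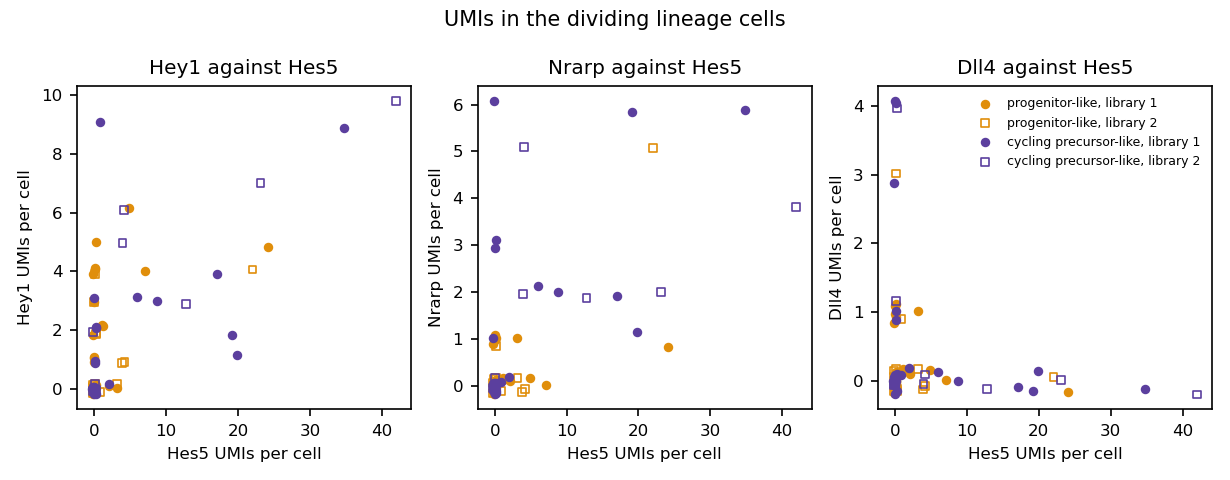
UMIs of Hey1 (left), Nrarp (middle) and Dll4 (right) against UMIs of Hes5 in each of the 78 dividing lineage cells, coloured by cell type (filled circles library 1, open squares library 2), with points shifted slightly so that they do not cover each other. The 17 cells with 4 or more Hes5 UMIs, a limit not fixed in advance, all have Hey1, 13 have Nrarp and 0 have Dll4. The cells with Dll4 lie near 0 on the Hes5 axis.

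Co-detection was compared with the number of cells that the product of the shares within each library gives. In the dividing lineage Hes5 and Hey1 were found together in 20 cells, where the product gave 12.5, and in 12 and 8 cells against 7.5 and 5 in the libraries. After thinning to 2000 UMIs the count was 8 against 3.09. Hes5 with Nrarp was in 14 cells against 7.31, Hey1 with Nrarp in 19 against 11.5, Hes5 with Heyl in 8 against 3.56 and Hes5 with Notch1 in 21 against 13.6. The pairs with Dll4 lay below the product, with Hes5 in 2 against 4.71, Hey1 in 4 against 7.5 and Nrarp in 2 against 4.46. Dll4 with Notch1, 7 cells against 8.02, lay near the product. Cells of a type differ in depth, which can raise such counts over the product, and the Dll4 counts are small. The dividing lineage also joins progenitor-like and cycling precursor-like cells, which differed in Hes5, Hey1 and Nrarp. Nrarp was at 10.8 and 21.8 CPM in the former and 86.7 and 86.2 CPM in the latter. Such a mixture can raise these counts as well, and its part was not tested.

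In basal-cell-like, non-sensory epithelium-like and sustentacular-like cells Hes1 was in nearly all cells, so a count of both genes could not rise far above the product. Hes1 and Hey1 were found together in 481 of 1310 basal-cell-like cells against a product of 468, in 373 of 530 non-sensory epithelium-like cells against 366 and in 220 of 281 sustentacular-like cells against 216. After thinning to 2000 UMIs Hes1 was in 62.2%, 69.5% and 49.6% of the cells of these types, which left more room above the product. The counts were then 135 against 129, 120 against 113 and 66 against 57.7. In gland-like cells, where Hes1 was in 320 of 452 cells, both genes were in 85 against 65.1, and the difference between types was not tested. Hey1 with Nrarp was 48 against 37.9 in non-sensory epithelium-like cells. In olfactory ensheathing-like cells Hey1 and Hey2 were together in 10 cells against 6.24, and Hes1 and Hey2 in 29 against 24.5. In T and NK cell-like cells Hes1 and Hey1 were together in 13 cells against 5.68, and in dendritic-like cells in 13 against 1.88. The T and NK cell-like cluster joins cells with and without a Cd3 UMI, which differed in both genes. Of the 410 dendritic-like cells, 23 were called doublets, and their Hes1 was at 39.5 and 121 CPM in the libraries. The part of mixed cells and doublets in these counts was not tested. In Dcn-high fibroblast-like cells Hes1 and Heyl were together in 44 against 43.5.

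After the last division, the comparison of the branches asked whether Notch targets mark immature basal cells. The Notch targets tested among the members, Hes1, Hey1 and Nrarp, did not pass. They rest on 0 to 11 UMIs per sum, so not passing does not show that their levels were equal. Hes1 and Hey1 were higher in basal cells without overlap of the libraries, and Nrarp overlapped. Hes6 was higher in the 159 immature basal cells than in the 180 immature apical cells, with 145 and 192 CPM against 80.3 and 80.01 CPM and no overlap. The log2 fold change, apical minus basal, was -1.10 ± 0.19 (edgeR adjusted p = 0.00128). This was the call among 4 members tested, where 7.35% of all 10560 genes were called. Hey1 had 7.70 and 10.8 CPM in apical and 13.2 and 16.03 CPM in basal cells, and did not pass (-0.71 ± 0.51, edgeR adjusted p = 0.542). Nrarp was at 1.10 and 6.16 against 0.00 and 16.03 CPM (edgeR adjusted p = 0.731), and Hes1 at 5.50 and 4.62 against 7.21 and 7.12 CPM (adjusted p = 0.798). Hes5 had 0 UMIs in apical and 3 in basal cells, too few for a test. The 6 non-sensory epithelium markers, Krt18 among them, summed to 1597 and 1560 CPM in the apical and 3657 and 3414 CPM in the basal branch, while the basal cell markers were at 13.2 and 23.1 against 20.4 and 21.4 CPM. Their part in the Hes6 difference was not tested. With the library as a block the genes called rose from 776 to 1300, and Hes6 was again the member called. Of 31 pathway genes tested, 5 were higher in the apical and 1 in the basal branch. The inhibitors of bHLH factors Id4 (222 and 242 against 84.1 and 87.3 CPM, 1.39 ± 0.17) and Id1 (90.2 and 134 against 32.4 and 41.0 CPM, 1.57 ± 0.26) and the cofactor Maml3 (46.2 and 18.5 against 8.41 and 10.7 CPM, 1.79 ± 0.48) were the apical genes that moved most.

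In mature neurons Hes1 and Hey1 were higher in the 109 mature basal VSN-like cells than in the 596 mature apical VSN-like cells. Hes1 had 44.0 and 49.4 CPM in basal and 5.13 and 13.8 CPM in apical cells, a log2 fold change, apical minus basal, of -2.43 ± 0.42 (edgeR adjusted p = 0.0142). Hey1 had 10.5 and 12.4 against 2.78 and 3.52 CPM, a log2 fold change of -1.94 ± 0.40 (edgeR adjusted p = 0.0275), and with DESeq2 it was -1.96 and did not pass (adjusted p = 0.0687). These were 2 of 5 members tested, where 9.36% of all 12722 genes were called. In neither case did the libraries overlap. Hes6 was at 51.8 and 37.3 CPM in apical and 41.9 and 38.2 CPM in basal cells and did not pass (0.07 ± 0.23, edgeR adjusted p = 0.896). Hey2 (edgeR adjusted p = 0.338) and Nrarp (adjusted p = 0.698) did not pass either.

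The Hes1 UMIs of mature basal VSN-like cells were in few cells, with 86 UMIs in 26 cells and 23 of them in 1 cell. Epithelial markers moved the same way. All 5 basal cell markers were detected in both groups and summed to 161 and 166 CPM in mature basal and 12.2 and 28.8 CPM in mature apical cells. The 6 non-sensory epithelium markers, Krt18 among them, summed to 3479 and 3641 against 1290 and 1377 CPM. Sustentacular markers were low in both, at 10.5 and 25.8 against 7.06 and 7.64 CPM, with Cyp2g1, Ermn and Sec14l3 at 0 in apical cells. Ier2 was at 82.8 and 75.3 against 43.2 and 47.6 CPM, and Fos overlapped. The part of RNA from epithelial cells in Hes1 and Hey1 was not tested. After thinning to 2000 UMIs Hes1 was in 3.67% of mature basal cells (1.01% to 9.13%) and 1.51% of mature apical cells (0.693% to 2.85%). The log2 fold change of Hes1 was then -2.38 and no longer passed (edgeR adjusted p = 0.224), and Hey1 had too few UMIs for a test. With the library as a block the genes called rose from 1191 to 2471. Of 32 pathway genes tested, Id4 (42.6 and 40.2 against 5.24 and 0.00 CPM, 3.82 ± 0.60) and Spen, a corepressor of Rbpj (50.7 and 57.6 against 25.1 and 25.8 CPM, 0.99 ± 0.19), were higher in apical cells, and 0 were higher in basal cells at an adjusted p of 0.05.

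The branch difference of Hes6 in immature cells was set against that in mature cells with an interaction term over the 4 groups. The apical minus basal value went from -1.10 in immature to 0.07 in mature cells, so the difference was smaller in mature cells. Both mature types held Hes6 at the level read as background above, where a branch difference could hardly show. The term therefore cannot tell whether a branch difference is lost in mature neurons. The change of 1.19 ± 0.30 on the log2 scale did not pass (edgeR adjusted p = 0.0903, where 1.28% of 13411 genes were called). With the library as a block it did (1.19 ± 0.26, adjusted p = 0.00239). The like difference for Hes1 was -1.88 ± 0.84 (edgeR adjusted p = 0.381) and for Hey1 -1.20 ± 0.59 (adjusted p = 0.448).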

How the data were processed

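Whole VNOs of wild-type male mice were profiled in 2 libraries of a droplet-based method that counts 3′ ends. Per the labels and the submitters' processing notes, the authors ran Cell Ranger 4 against mm10 and deposited UMI counts per gene and barcode, 12814 and 11270 barcodes, which they analysed with Seurat 3.2.3. From these counts, 10592 of 24084 barcodes were kept, those with 200 to 9000 genes and no more than 5% of UMIs from mitochondrial genes. They were clustered with Seurat 5.3.0 (2000 variable genes without the members, 30 components, resolution 0.8, and pools of mixed clusters again with 15 components and resolution 1.0) and named from marker lists. Names were rebuilt here and may differ from those of the study. Doublets were called at an expected rate of 8% (203 kept cells) and left in, with an alternative without them.

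UMIs were summed per library and group and tested with edgeR 4.0.16 (R 4.3.3; quasi-likelihood, TMM scaling, at least 10 UMIs in the sums compared, Benjamini-Hochberg adjusted p under 0.05, only the groups compared in each fit). DESeq2 1.42.0 was an alternative. The scripts were tested on simulated data. Shares of cells carry exact 95% binomial intervals, and the floor for a count of 0 was 3 counts, so that both cover counting error only. Thinning drew 2000 UMIs per cell and left out shallower cells (8265 of the kept cells had as many). The genes named were the 7 members, up to 3 pathway genes past the threshold in each direction per comparison by size of change, and the 3 genes with the most similar pattern per member. Fos, Ier2, Dcn and Krt18 were read beside them. A few genes that this rule names are not reported here. The members and lists were chosen with earlier results of these data known.

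The groups of a comparison come from the same 2 captures, so the library number pairs them. The correlation of deviations of same-numbered sums was 0.0358, 0.0605, 0.112, 0.0461, 0.0344 and 0.0703 in the 6 comparisons, in the order of the report. The study's methods describe a suspension of cells from several mice and 2 captures, without saying which mice entered which library. They differed by more than sampling noise, with a chi-square of 1.83 to 5.06 per degree of freedom over genes.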

Additional observations from a re-analysis of the deposited data

Results flagged for a closer look

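The apical-basal difference of Hes6 was not the same in immature and mature neurons when the difference itself was tested with the library as a block. The apical minus basal value was -1.10 in immature and 0.07 in mature cells, so it was the immature branches that differed more. Hes6 was at the level read as background in both mature types, where a branch difference could hardly show. The change of 1.19 on the log2 scale passed with the block (edgeR adjusted p = 0.00239), and without it did not (1.19, adjusted p = 0.0903). The interaction was added after the data were seen.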

How the results depend on the processing

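Of 16 calls of a member in a comparison, 140 of 148 alternatives with a test kept the direction and the side of the threshold, 8 missed it and 0 reversed. Of 13 member results that did not pass, 107 of 112 alternatives stayed so, 3 passed in the same direction and 2 passed with the direction reversed. With the mitochondrial limit at 10%, 6 members in place of 2 were called between sustentacular-like and basal-cell-like cells, where Hes6 was at -0.72 and Nrarp at 1.26. The sustentacular-like group then held 1389 cells in place of 281. With cells thinned to 2000 UMIs, the members called were 1 in place of 4 between endothelial-like and fibroblast-like cells, 2 in place of 1, with Nrarp added, between venous and other endothelial-like cells and 0 in place of 2 between mature neurons. DESeq2 called 1 in the last, Hes1. The ratio of Hes5 and Hey1 co-detection in dividing lineage cells was 1.60, and it was 1.50 with the mitochondrial limit at 10%, 2.59 with thinned cells, 1.58 with members kept in the clustering and 1.66 with at least 2 UMIs of each. The cause of these changes was not tested.

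The group with the highest level was the same for 7 of 7 members, except for 6 of 7 with thinned cells, without replicate 1 and without replicate 2. With 1 library left out no test remained, and 0 of the 32 log2 fold changes of called members reversed. Some moved by over 1.5 times in fold: without replicate 2, Hes1 in mature neurons to -3.17, Hes5 in dividing cells to 4.60, and Nrarp and Heyl in endothelial-like cells to 3.72 and -9.10, and Heyl to -5.79 without replicate 1. Of those not called, Hes6 between sustentacular-like and basal-cell-like cells was at -0.61 without replicate 1 and 0.77 without replicate 2.

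Genes called in all changed by over 1.5 times as follows. In sustentacular-like against basal-cell-like cells, 5686 became 3750 with DESeq2 and 2778 with thinned cells. In endothelial-like against fibroblast-like cells, 5780 became 3777 and 3170. In venous against other endothelial-like cells, 1306 became 602 and 702. In dividing lineage cells, 3451 became 1550 and 1025, and 1858 with no filter on low counts. In immature branches, 776 became 293 and 264, and 1300 with the library as a block. In mature neurons, 1191 became 175 with thinned cells, 2166 with no filter and 2471 with the block. The block, as the pairing of groups within a library, added a call of Hes1 between endothelial-like and fibroblast-like cells (log2 fold change -0.26, edgeR adjusted p = 0.0464) and changed no other call of a member within the 6 comparisons. Low counts limit what can be said of Hey2, Heyl and, outside the dividing lineage, Hes5, which had fewer than 10 UMIs in most comparisons.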
